A study of Mus musculus with 2 samples.

Results

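The genes described are 10 that govern the passage of a cell from G1 into S phase or the p53 response: the D-type cyclin genes Ccnd1, Ccnd2 and Ccnd3, the cyclin-dependent kinase genes Cdk4 and Cdk6, the kinase inhibitor genes Cdkn1a and Cdkn1b, the retinoblastoma gene Rb1, the p53 gene Trp53 and its negative regulator Mdm2. A peak was counted for a gene when its summit lay between the ends of that gene's RefSeq span on GRCm38, the assembly called mm10. By this rule 10 of the 26584 deposited peaks belonged to 6 of the 10 genes. The peaks came from methylated RNA immunoprecipitation sequencing (MeRIP-seq), in which RNA fragments bound by an antibody against N6-methyladenosine (m6A) are compared with unselected fragments, the input. There is 1 immunoprecipitated (IP) sample and 1 input sample, made from polyA RNA of the uterus of wild-type mice mated at 6 to 8 weeks of age and killed on gestational day 4, with the vaginal plug counted as day 1. The cell type is labelled mixed, and how many animals went into a sample is not given in the sources used here. With no replicate, no test between samples was possible, and each value describes this 1 peak list.

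D-type cyclins bind the kinases CDK4 and CDK6, and the active complexes phosphorylate the retinoblastoma protein, which then releases the E2F factors that drive S phase genes. The inhibitors p21, encoded by Cdkn1a, and p27, encoded by Cdkn1b, hold the cyclin-dependent kinases back, and p53 induces p21 after DNA damage. MDM2 is a ubiquitin ligase that marks p53 for destruction and is itself a p53 target. In the mouse uterus before implantation, progesterone is known to stop epithelial cells from dividing while stromal cells proliferate, and cyclin D3 with CDK6 or CDK4 takes part in the decidual reaction that follows. Within mRNA, m6A is mostly placed in coding sequence near the stop codon and in the 3′ untranslated region, and it is known to shorten the life of many transcripts.

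Each peak carries a fold enrichment from the authors' peak caller, which compares IP fragments with a background at the summit, 1 being added to both. All 26584 peak names hold the run name D8NegIP-Posinput, which is not explained. If D8 stands for a day, it is another day than the labels give. The name also pairs a Neg IP with a Pos input, and what these words mean is not stated. The labels' grouping was kept, so which day and which input stand behind these folds is unsettled. The number of IP fragments stacked at the summit (the pileup) and the background were recovered by solving for them with the fold and its deposited p-value. Over all peaks the median pileup was 18 fragments, the median background 1.42 and the median fold enrichment 7.14. In brackets after a fold enrichment stands its 95% exact Poisson interval, which covers counting error of the pileup only. All 14 genes taken as markers of uterine stroma, muscle, epithelium, endothelium and regulators had a peak, among them Pgr, Hand2 and Hoxa10. The share of all protein-coding genes with a peak was 44.8%. The markers' highest folds ran from 4.635 in Acta2 to 29.5 in Hand2. Of 5 markers of other sources, the liver genes Alb and Apoa1 had peaks, with 8.67 (5.17 to 13.8) and 25.2 (17.3 to 35.6), whereas Pou5f1 and Nanog of the embryo and Ptprc of leukocytes had none. The fold of Apoa1 was above that of every uterine marker but Hand2, so a peak or its fold does not tell the tissue. Any part of these other sources in the values of the 10 genes was not tested.

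Mdm2 stood apart from the other genes with a fold enrichment of 22.9, Cdkn1b lay at the middle of protein-coding genes with a peak, the cyclin genes Ccnd1 and Ccnd2 and the kinase gene Cdk6 lay below the middle, and Ccnd3, Cdk4, Cdkn1a and Trp53 had no peak. The 6 genes with a summit compare with 44.8% of 21900 protein-coding genes. Both peaks of Rb1 also lay in a gene inside it. With summits counted only where no other gene spans them, 5 of the 10 genes had a peak, against 40.8% of protein-coding genes. With peaks of −log10 q of at least 5 alone, the 6 genes were the same, against 41.3%. At 10 genes these counts lie close to the background share and say nothing particular of the set. In whole tissue, a gene without a peak may be little transcribed, transcribed in few cells or little methylated, and these cannot be told apart here, because the files give no depth outside peaks.

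Over the 6 genes with a peak, the highest fold enrichment per gene had a median of 8.63 and ranged from 5.91 in Cdk6 to 22.9 in Mdm2. The median over the 9822 protein-coding genes with a peak was 9.36, and 3 of the 6 genes lay above it. These were Mdm2, Rb1 by a shared peak, and Cdkn1b only barely, with 9.370 against 9.363. Taken singly, 7 of the 10 peaks had a fold enrichment above the median of all peaks, with a median of 7.67 over the 10. The 7 include both Rb1 peaks, which another gene shares. A pileup above that of all peaks was found in 8, with a median of 31 fragments over the 10. Backgrounds ran from 1.35 to 4.42 fragments, 9 of the 10 above the median of all peaks. None of the 10 therefore rested on the near-empty background found at the low end of the list, where it fell to 0.175. Of the 8 peaks that no other gene shares, 3, in Ccnd1, Cdk6 and Mdm2, had the summit within 10% of the span from one of its ends. So did 41.0% of all peaks that lay in a single protein-coding span. Neither of the shared Rb1 peaks did. The pileups of 14 to 88 fragments were all above the 10 used as a minimum in a stricter setting.

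**Figure D1:**
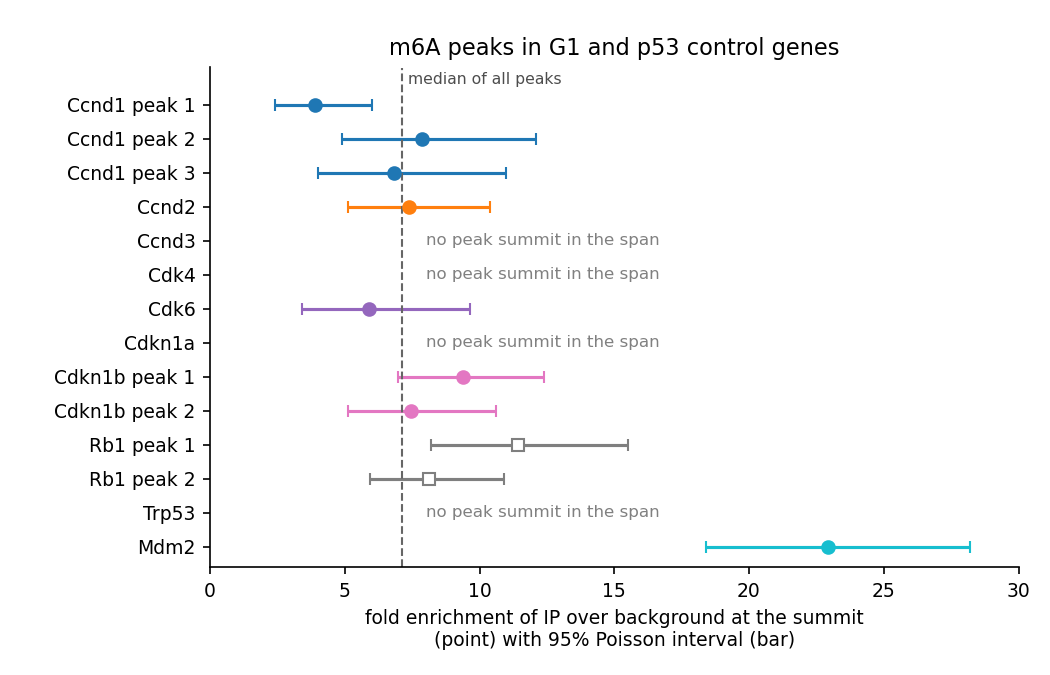
Fold enrichment (horizontal axis, IP over background at the summit) of each of the 10 peaks, with bars for 95% Poisson intervals of the pileup; open squares mark peaks of Rb1 that also lie in Lpar6, and the dashed line is the median of all peaks, 7.14. The interval of Mdm2 begins at 18.4, above the upper end of the other 9, the highest of which is 15.5.

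Of the D-type cyclins, Ccnd1 and Ccnd2 had peaks and Ccnd3 had none. Ccnd1, the cyclin that mitogens induce, spans chr7:144929931-144939831 and held 3 peaks, more than any other of the 10 genes. As many peaks or more were found in 32.3% of protein-coding genes with a peak. The first, at chr7:144932362-144932889, had a fold enrichment of 3.91 (2.43 to 6.00) from 19 fragments over a background of 4.11. The second, at chr7:144938027-144938289, had the same pileup of 19 over a background of 1.54, and so a higher fold of 7.88 (4.90 to 12.1). The third, at chr7:144939527-144939814, had 6.82 (4.01 to 11.0) from 15 fragments. The first 2 had equal pileups, so their folds differed by the background alone, whose error the intervals leave out. The intervals of the second and the third contain each other's fold. The third summit lay 143 bp inside the high-coordinate end of the span, the closest of the 10 to any span end. The first lay 2508 bp from the low-coordinate end, outside the 818 bp that Ccnd1 shares with the neighbouring gene LTO1. The strand of Ccnd1 is not in the tables used here.

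Ccnd2, the D-type cyclin with a known role in granulosa and germ cells, had 1 peak in its span of 27027 bp. It lay at chr6:127129524-127130144, with a fold enrichment of 7.40 (5.13 to 10.4) from 32 fragments over a background of 3.46. Its summit was 4843 bp from the low-coordinate end and far from the 2800 bp shared with the non-coding gene 9330179D12Rik. The interval lies inside that of the strongest Ccnd1 peak, although it rests on more fragments. Among protein-coding genes with a peak, 32.6% had a lower highest fold than Ccnd2 and 37.2% a lower one than Ccnd1.

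Ccnd3, whose product pairs with CDK6 in the decidua, had no summit in its 94639 bp. The nearest peak lay 1955 bp past its high-coordinate end, at chr17:47601050-47601964, with 12.4 (8.13 to 18.2) from 24 fragments. That summit is in the span of Bysl, a ribosome assembly factor gene on the opposite strand whose span shares 359 bp with the end of Ccnd3. The peak list carries no strand, and the gene table assigns this peak to Bysl alone.

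Of the 2 kinase genes that D cyclins activate, Cdk6 had a weak peak and Cdk4 none. The Cdk6 peak, at chr5:3520512-3520711, had a fold enrichment of 5.91 (3.41 to 9.65) from 14 fragments, the smallest pileup of the 10. It was 200 bp wide, the smallest width in the whole list, and its −log10 q was 7.28. In a span of 190005 bp its summit lay 10374 bp from the 3′ end, at 94.5% of the way along the gene. Only 17.6% of protein-coding genes with a peak had a lower highest fold. Cdk4, a short gene of 3754 bp at chr10:127063535-127067288, had no summit inside it or within 5000 bp of it. The closest peak, 16.1 (10.9 to 22.9), was 7117 bp away in Marchf9, a gene of a membrane ubiquitin ligase.

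Of the inhibitor genes, Cdkn1b had 2 peaks and Cdkn1a none. The stronger Cdkn1b peak, at chr6:134920716-134921332, had a fold enrichment of 9.37 (6.96 to 12.4) from 48 fragments over a background of 4.23. The other, at chr6:134921784-134921997, had 7.47 (5.11 to 10.6) from 30 fragments. The intervals overlap, and 451 bp separate the peaks. Both lay in the first part of the gene, with summits 661 and 1528 bp from its start in a span of 5125 bp, or at 12.9% and 29.8% of its length. Of 7179 protein-coding genes with a known strand and a peak of their own, 16.7% had the strongest one in the first 20% of the span, as Cdkn1b did. Its highest fold was at the middle of the list, above that of 50.1% of protein-coding genes with a peak. The DNA around the Cdkn1b start, chr6:134920151-134920430 on the plus strand of GRCm38.p6, is given from RefSeq to place the peak. The capitals mark the 30 bases from the gene start on, and the peak begins at 134920716.
Cdkn1b start: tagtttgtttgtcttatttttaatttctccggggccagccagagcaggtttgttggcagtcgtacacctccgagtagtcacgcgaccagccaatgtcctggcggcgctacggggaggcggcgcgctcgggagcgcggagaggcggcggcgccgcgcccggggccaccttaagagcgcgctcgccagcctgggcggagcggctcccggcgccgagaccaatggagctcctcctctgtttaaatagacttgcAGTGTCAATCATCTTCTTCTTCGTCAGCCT

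Cdkn1a, the p53-induced inhibitor, had no summit in its 9744 bp at chr17:29090979-29100722. No peak lay within 5000 bp either, and the nearest was 119001 bp away, in the kinase gene Stk38, with 6.45 (4.39 to 9.17). No other of the 10 genes was as far from a peak. No gene overlaps Cdkn1a in the table.

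**Figure D2:**
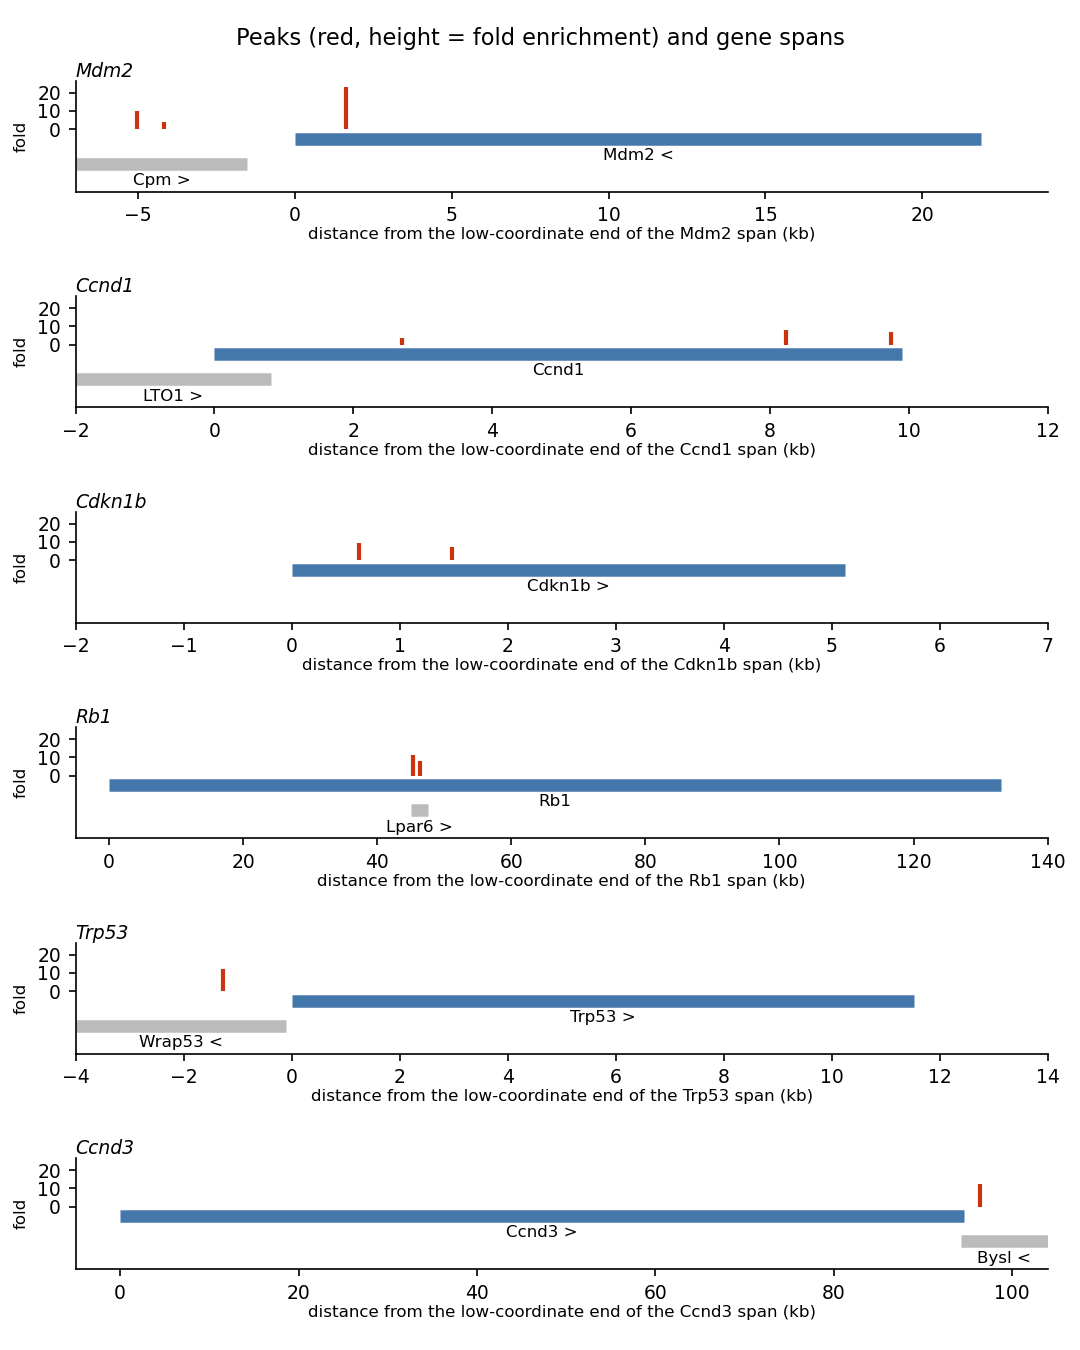
Spans of 6 of the genes (blue) with an overlapping or adjacent gene (grey) and the peaks around them (red, height is the fold enrichment), against distance from the low-coordinate end of the span in kb; > and < give the strand where the tables hold it. The peaks of Rb1 sit over Lpar6, those near Trp53 and Ccnd3 over Wrap53 and Bysl, and the Mdm2 peak 1691 bp from the low-coordinate end, which is the 3′ end.

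For Rb1, the gene of the retinoblastoma protein, every peak was shared with another gene. The peak at chr14:73237936-73238515 had a fold enrichment of 11.4 (8.21 to 15.5) from 39 fragments, and that at chr14:73238832-73239645 had 8.12 (5.92 to 10.9) from 43. Both lay whole inside Lpar6, a lysophosphatidic acid receptor gene of 2468 bp within the Rb1 span of 133094 bp. The summits were 459 and 1587 bp from the Lpar6 start, and 316 bp separate the peaks. In the remaining Rb1 span there was no summit, so the list holds no peak that belongs to Rb1 alone. Such a case is not rare: 881 protein-coding genes, 8.97% of those with a peak, had only shared ones. Whether the immunoprecipitated fragments came from Rb1 or from Lpar6 transcripts was not tested, since the peaks carry no strand. Lpar6 is on the plus strand, and its start window, chr14:73237641-73237920, is given to show how close the first peak begins, at 73237936. Capitals again mark the 30 bases from the start on.
Lpar6 start: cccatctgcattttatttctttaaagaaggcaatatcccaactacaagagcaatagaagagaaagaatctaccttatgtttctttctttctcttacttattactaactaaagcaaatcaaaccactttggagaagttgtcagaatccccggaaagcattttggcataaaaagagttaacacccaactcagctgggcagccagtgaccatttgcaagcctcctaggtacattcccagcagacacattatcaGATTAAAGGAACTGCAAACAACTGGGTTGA

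Trp53 had no summit in its 11526 bp at chr11:69580348-69591873, and a peak lay just before it. That peak, at chr11:69578902-69579260, had a fold enrichment of 12.1 (7.59 to 18.3) from 20 fragments over a background of 0.742. Its summit was 1257 bp outside the span, on the side of the Trp53 start. The summit is in the span of Wrap53, the gene of a telomerase and Cajal body protein, which runs the other way, 97 bp from Trp53. Which gene's transcripts gave the fragments was not tested, since the peaks carry no strand. The peak covers one of the Wrap53 starts in RefSeq. The first sequence below is that start, chr11:69579220-69579499 on the minus strand, where the 41 bases inside the peak are in capitals. The second is the Trp53 start, chr11:69580109-69580388 on the plus strand, with no peak in the window. This start lies 11 bp inside the span of the table, and the 30 bases from it on are in capitals.
Wrap53 second start: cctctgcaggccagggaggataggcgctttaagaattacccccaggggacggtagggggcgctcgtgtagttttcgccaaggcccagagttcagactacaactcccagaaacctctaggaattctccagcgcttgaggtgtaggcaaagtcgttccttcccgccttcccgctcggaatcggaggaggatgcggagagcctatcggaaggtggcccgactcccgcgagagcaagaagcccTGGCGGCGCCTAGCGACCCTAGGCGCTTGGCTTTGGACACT
Trp53 start: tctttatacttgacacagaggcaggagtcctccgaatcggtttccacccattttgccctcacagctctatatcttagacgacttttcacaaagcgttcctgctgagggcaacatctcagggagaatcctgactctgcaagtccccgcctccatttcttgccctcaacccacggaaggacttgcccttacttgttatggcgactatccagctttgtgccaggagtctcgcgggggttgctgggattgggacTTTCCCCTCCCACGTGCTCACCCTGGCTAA

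The letters GGAC, the core of the sequence in which m6A is usually placed, and GGACT, which contains GGAC, were searched on both strands of the 4 windows. The Wrap53 window held GGAC at 2 places on the gene strand, 1 of them inside the peak, and no GGACT. The Trp53 window held 2 GGACT on the gene strand and 2 on the other, none in the 30 bases from the start on. The Cdkn1b window held GGAC once, on the other strand, and the Lpar6 window on neither. For comparison, 85.6% of 32851 start windows of the same 280 bases held GGAC on either strand and 42.8% held GGACT. On the gene strand alone, 62.5% held GGAC and 24.1% held GGACT. A match in such a window is a description of its letters and not a methylated site. The sequence under the summits of the 10 peaks was not analysed here.

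Mdm2 carried the strongest site of the 10 genes. Its only peak, at chr10:117690102-117690881, had a fold enrichment of 22.9 (18.4 to 28.2), with 88 IP fragments over a background of 2.88 and a −log10 q of 91.6. Of protein-coding genes with a peak, 96.7% had a lower highest fold, and 318 of 9822 had a higher one. By −log10 q, 232 ranked higher. The gene lies on the minus strand at chr10:117688875-117710758, and the summit was 1691 bp from its 3′ end, at 92.3% of the way along the span. Among the 7179 protein-coding genes with a known strand and a peak of their own, 33.1% had the strongest one in the last 10% of the span. This place is therefore common. The peak was 780 bp wide, wider than 84.8% of all peaks. Past that end, 2 weaker peaks lay in Cpm, a carboxypeptidase gene on the opposite strand whose span stops 1522 bp short of Mdm2. The nearer one, 4014 bp from the Mdm2 end, had 3.96 (1.81 to 7.95) from 6 fragments.

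**Figure D3:**
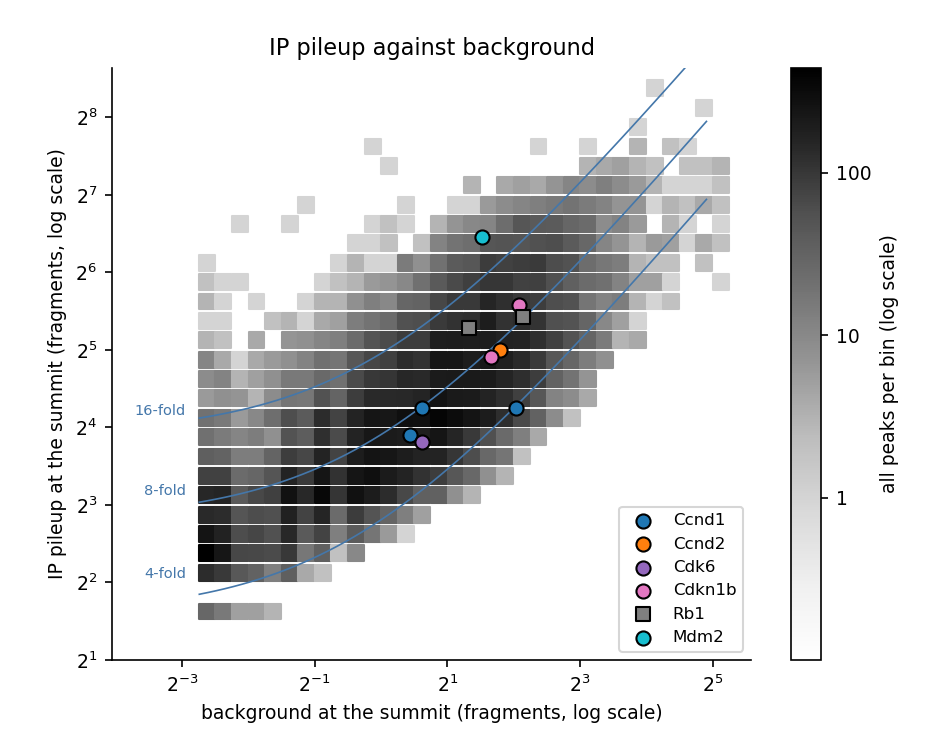
IP pileup (vertical axis) against background (horizontal axis) at the summit, both in fragments on log scales, for all 26584 peaks (grey bins) and the 10 peaks of the 6 genes (coloured), with lines of equal fold enrichment. Mdm2, with 88 fragments over 2.88, lies above the 16-fold line, while Cdk6, with 14 fragments, and Ccnd1, with 15 to 19, have the lowest pileups.

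Of 93 related genes in 5 lists, 51 had a peak (54.8%, beside 44.8% of all protein-coding genes), and 1 of them, Fbxw7, had a higher fold enrichment than Mdm2. In 11 of the 51, the upper interval end reached the lower end of the Mdm2 interval, 18.4. The lists were chosen with earlier results of these data known, and hold none of the 10 genes. Among 15 other G1/S cyclins, kinases and inhibitors, 7 had a peak (46.7%, close to the 44.8% of all protein-coding genes), with a median highest fold of 6.78. Fbxw7, which encodes the ubiquitin ligase adaptor that degrades cyclin E, led them with 31.4 (26.0 to 37.7), and its interval overlaps that of Mdm2. Cdkn1c, the gene of the third inhibitor of the p21 and p27 family, followed with 10.8 (6.43 to 17.1), an interval that overlaps that of Cdkn1b. Cdkn2b, a CDK4 and CDK6 inhibitor gene, had 7.49 (4.60 to 11.6) at a site shared with Gm12610, and the lowest was Mnat1, an assembly factor of the CDK-activating kinase, with 5.87 (2.69 to 11.8) at a site shared with Six4. The cyclin E genes Ccne1 and Ccne2 and their kinase gene Cdk2 had no peak, nor had Cdk7, Ccnh, Cdkn2a, Cdkn2d and Cks1b.

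The pocket protein and E2F genes, on which Rb1 acts or to which it is related, had peaks in 8 of 12 cases (66.7%, beside 44.8% of all protein-coding genes) and folds of at most 10.7. The highest were E2f6, a repressor, with 10.7 (6.87 to 15.9), E2f3, an activator, with 10.2 (5.96 to 16.3), and Tfdp2, an E2F partner, with 8.67 (5.52 to 13.0). The lowest was Tfdp1, the main E2F partner gene, with 3.45 (2.32 to 4.97). Rbl1, E2f1, E2f2 and E2f5 had no peak. The list's median was 6.66, below the 9.36 of all protein-coding genes with a peak.

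On the p53 side, 11 of 16 regulator genes had a peak (68.8%, beside the same 44.8%), with a median highest fold of 11.5. Trp53bp1, a DNA break sensor that binds p53, had 21.7 (16.1 to 28.5), and the acetyltransferase genes Ep300 and Crebbp had 18.3 (13.1 to 24.8) and 16.3 (13.4 to 19.7). Cop1, another ubiquitin ligase gene that acts on p53, was lowest with 5.50 (2.90 to 9.70). The p53 relatives Trp63 and Trp73 had no peak, as Trp53 had none, and neither had the checkpoint kinase genes Atr, Chek1 and Chek2. Of 25 other genes listed here as p53 targets, 18 had a peak (72.0%, beside 44.8%), with a median of 10.9. They were led by the DNA polymerase gene Polk with 16.7 (12.1 to 22.4), the survival gene Bcl2l1 with 16.3 (13.6 to 19.5) and the antiproliferative gene Btg2 with 15.9 (12.3 to 20.2). All 3 intervals overlap that of Mdm2. The cell death gene Bax was lowest with 3.41 (1.63 to 6.57), from 7 fragments and with a −log10 q of only 1.81. Pmaip1, Ccng1, Plk3, Ei24, Perp, Apaf1 and Dram1 had no peak, as Cdkn1a had none. With peaks of −log10 q of at least 5 alone, 16 of the 25 targets had a peak, beside 41.3% of all protein-coding genes.

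Genes of the later phases, S, G2 and M, had peaks in 7 of 25 cases, a share of 28.0% beside the 44.8% of all protein-coding genes, with a median of 8.21. The proliferation marker gene Mki67 had 12.1 (8.93 to 16.1), the mitotic kinase gene Aurkb 10.2 (5.67 to 17.3) and the replicative helicase gene Mcm7 8.91 (5.61 to 13.5). The replication clamp gene Pcna was lowest with 4.26 (2.62 to 6.60). The cyclin A and B genes Ccna2, Ccnb1 and Ccnb2, their kinase gene Cdk1 and 14 others had no peak. None of these shares was tested against another, as 1 peak list gives no spread to test against.

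**Figure D4:**
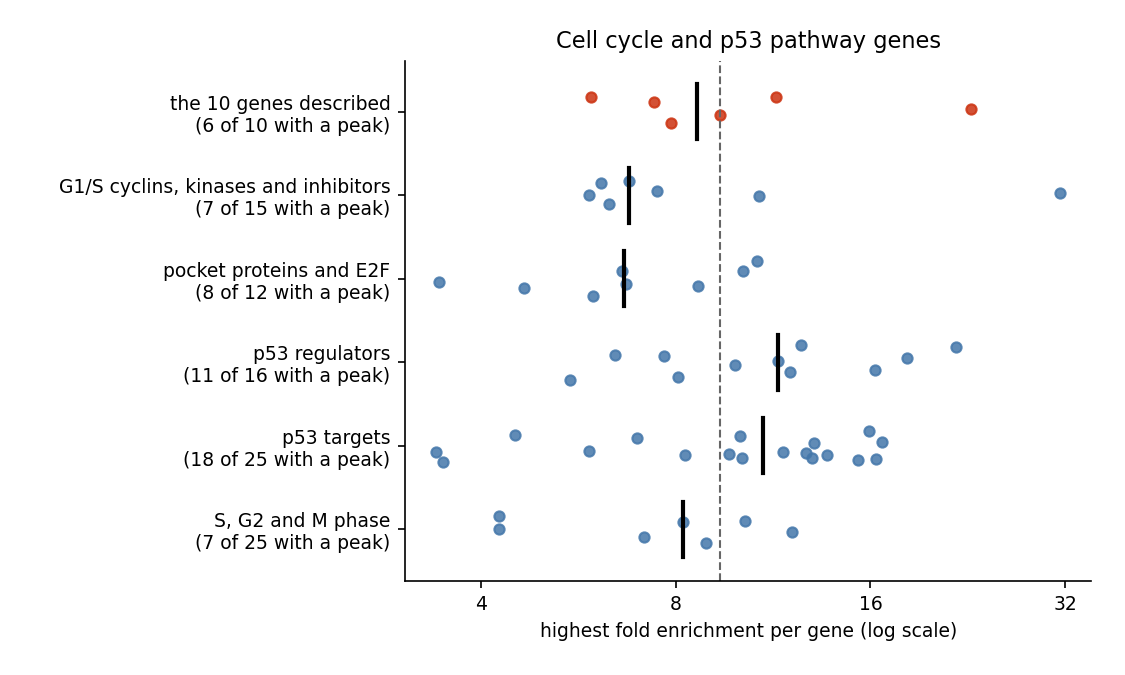
Highest fold enrichment of each gene with a peak (points, log scale) in the 10 genes described (red) and 5 lists of related genes (blue), with each list's median as a black bar and the median of all protein-coding genes with a peak, 9.36, dashed. The counts at the left give genes with a peak, from 7 of 25 for S, G2 and M phase to 18 of 25 for p53 targets.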

How the data were processed

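One file, the peak list of the IP sample, was used. The submitters' processing notes name HISAT2 2.2.1, MACS3 3.0.0a7 and mm10, while options, any pooling and how the input was used are not given there. The authors' deposited values are a fold enrichment (ratio), −log10 p and q-values and a score of 10 times −log10 q, within 1.

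Pileup and background were solved from the ratio, with its pseudocount of 1, and the Poisson p-value; 99.01% of pileups, and all 10 described, came out whole within 0.05. Spans came from a RefSeq table of 49997 genes on GRCm38.p6 without exons, and strands from RefSeq start windows, which 7 of the 10 genes have. Coordinates count from 1. Library depth is unknown, and amplified fragments are not independent molecules.

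The 10 genes and the lists were chosen with earlier results of these data known. Named genes are the 10 and, of each list, the 3 highest, the lowest and, without values, those lacking a peak. Alternatives changed the peak threshold, the assignment, the value per gene and the pseudocount. Tools were Python 3.11.15 with matplotlib 3.10.9, scipy 1.17.1, pandas 2.3.3 and numpy 2.4.6.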

Additional observations from a re-analysis of the deposited data

How the results depend on the processing

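The number of the 10 genes with a peak was 6, and lay between 5 and 8 over the alternatives. It was 5 when Rb1 dropped out with summits in several genes left out, and 8 when summits within 5000 bp of a span also counted. That margin was chosen after the data were seen and adds the peaks in the spans of Bysl and Wrap53 to Ccnd3 and Trp53. The share of all protein-coding genes with a summit within the same margin was not computed. The 8 therefore has no background beside it and says nothing particular of the set. The number of peaks was 10, and between 8 and 13. The median highest fold enrichment was 8.63, 7.88 without shared summits, 7.91 with each gene's median peak in place of its highest, 10.4 with the 5000 bp margin and 11.9 without the pseudocount. All lay inside 6.05 to 12.2, the medians of the lower and upper interval ends of the genes' highest peaks. That band reflects counting error of single peaks and is not an interval of the median, so lying inside it is a weak check. The value without the pseudocount is also a fold on another scale. A threshold of 4 on the fold enrichment left 9 peaks, without the first of Ccnd1. The counts of the 5 related lists and of peaks close to a span end moved by less than 1.5 times. The search for motifs under summits and its narrower window were not run for want of the genome. No paired analysis was possible because there is 1 sample a group and no result comes from a test. A pileup of 14 fragments, as in Cdk6, leaves the fold enrichment uncertain from 3.41 to 9.65.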
